A study of Mus musculus with 8 samples.

Results

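Kit ligand and the platelet-derived growth factor (PDGF) family were followed as 8 mouse genes: the ligands Kitl, Pdgfa, Pdgfb, Pdgfc and Pdgfd, and the receptors Kit, Pdgfra and Pdgfrb. They were found by matching their Entrez gene IDs to the array annotation, and all 8 were among the 24235 genes it names. Of these genes 15638, including 7 of the 8, passed the filter on low signal, and Pdgfra did not.

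The KIT and PDGF receptors are receptor tyrosine kinases of one structural class, which dimerise when bound by ligand and signal through PI3K-AKT and RAS-ERK. In the ovary, granulosa cells make KIT ligand, and KIT is known from oocytes and from the theca layer outside the follicle. PDGF ligands act as dimers: PDGFRA binds the A, B and C chains, PDGFRB binds B and D, and the C and D chains must first be cut by proteases such as tissue plasminogen activator and urokinase.

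The data came from primary follicular cells, mostly granulosa cells, grown from preantral follicles of 8-week-old Swiss mice, with 5 mice pooled per replicate. All cells were cultured for 9 days, kept in hormone-free medium with charcoal-treated serum from day 7, and transfected with 12 pmol siRNA and 200 ng of the pDsRed plasmid. After 24 h they received 17β-estradiol (E2, a ligand of the estrogen receptors) at 100 nM or vehicle for 10 h. Control siRNA and FOXL2 siRNA, each given vehicle or E2, made 4 groups of 2 arrays. FOXL2 is a forkhead transcription factor that maintains granulosa cell identity, so the design asks what its depletion and E2 do to each gene, alone and together. The sources used here do not say whether arrays with the same replicate number came from one pool of mice, so p-values measure the spread between these arrays only. In the study's own tables the E2 effect with control siRNA runs the other way from the array titles. Groups were taken from the titles, and the mean effect of FOXL2 siRNA over both treatments is the same whichever control arrays received E2.

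All 8 arrays lay on 1 slide with 1 scan time, 51.4% to 55.6% of probes were well above background, and no probe was saturated. Signals are given as processed fluorescence after each array was scaled to a common 75th percentile of 320.0 units, and they may be compared between arrays but not between genes. The averaged signal of Foxl2, the siRNA target, did not differ between the siRNAs beyond the spread. On the control siRNA arrays it read 11237 and 8239 with vehicle and 7845 and 6944 with E2. On the arrays labelled FOXL2 siRNA it read 10853 and 10745 with vehicle and 8895 and 7957 with E2. Its log2 change over both treatments was 0.18 (interval -0.06 to 0.42, limma adjusted p = 0.334), and the arrays of both siRNAs overlapped. The brighter of the 2 Foxl2 probes carried that signal. The dimmer one fell by 0.97 on the log2 scale over both treatments (limma adjusted p = 0.0199). It read 81.6 to 128 units on the control arrays and 44.3 to 65.4 on the others. Whether either probe lies in the part of the message that the siRNAs cut was not tested. The paper reports by qPCR that each siRNA pool lowered its target mRNA in these follicular cells. That qPCR is described for its knockdowns of FOXL2 and nuclear receptors, before the E2 experiment. The paper also reports by Western blot that SOX9 protein rose after FOXL2 siRNA, including in cells deprived of hormones. Of 12 granulosa markers 9 were well above background on all 8 arrays, whereas Amh and Fshr were so on none. Of 10 oocyte markers 7 were on no array and 1 (Gdf9) was on all 8. Of 8 endothelial markers 5 were on none (Cdh5, Cldn5, Emcn, Tek and Vwf) and 2 on all 8 (Pecam1 and Esam). Of 7 mast cell markers 4 were on none and 2 on all 8 (Tpsb2 and Hdc). Of 8 markers of macrophages and other leukocytes 3 were on none (Ptprc, Lyz2 and C1qa) and 4 on all 8 (Cd68, C1qb, Cd14 and Itgam). These are bulk samples, in which fewer cells of a type and less RNA per cell cannot be told apart.

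Pdgfc and Pdgfa were higher on the arrays labelled FOXL2 siRNA, with and without E2. The other 5 genes tested did not pass the threshold in any comparison unless the replicate number was added as a block, which added Pdgfb, and no family gene passed it for E2. The plot of signals by array shows all 8 genes.

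**Figure D1:**
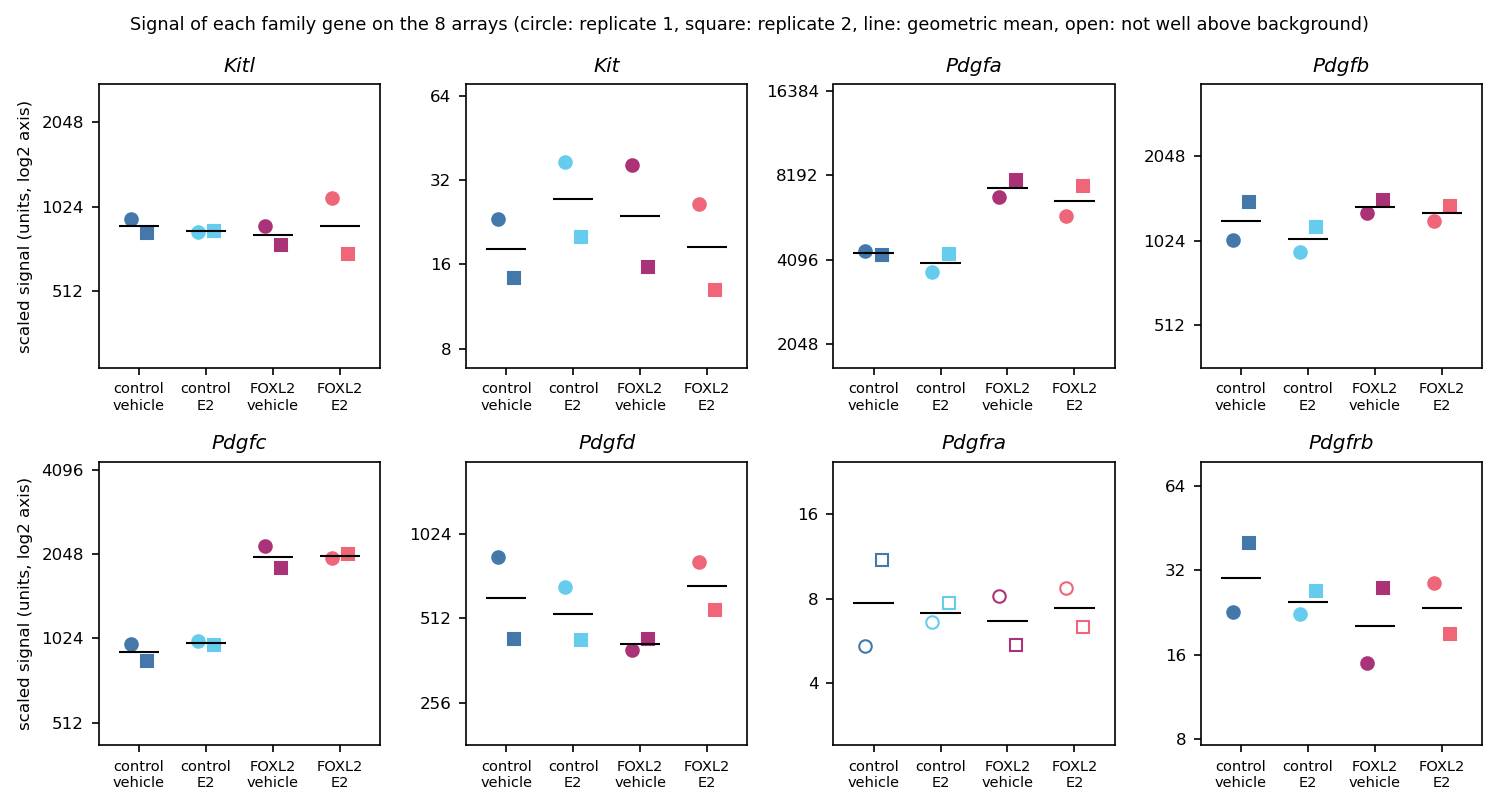
Scaled signal of each of the 8 genes on each array (log2 axis, each panel with its own range), with the siRNA and treatment below. All 4 control arrays lie below all 4 arrays labelled FOXL2 siRNA for Pdgfc and Pdgfa, Kit reads higher in replicate 1 of every group, and the open symbols of Pdgfra mark signals not well above background.

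Pdgfc, the C chain, is a ligand that the cells must cleave before it binds PDGFRA. It read 978 and 852 on the control arrays with vehicle and 1006 and 968 on those with E2. On the arrays labelled FOXL2 siRNA it read 2189.8 and 1825 with vehicle and 1979 and 2053 with E2. The control arrays lay close together, the arrays labelled FOXL2 siRNA were all above them, and arrays with E2 lay among or next to those with vehicle. Over both treatments the signal was 2.12-fold higher (95% interval 1.85 to 2.42; log2 change 1.08, SE 0.08; limma adjusted p = 0.000348). Within treatments the log2 change was 1.13 with vehicle (SE 0.12, limma adjusted p = 0.00253) and 1.03 with E2 (SE 0.12, limma adjusted p = 0.00477). Of the 15638 genes, 251 had a larger rise over both treatments.

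Pdgfa, the A chain, is secreted ready to bind PDGFRA. Its signal was 4386 and 4269.9 on the control arrays with vehicle and 3697 and 4278 on those with E2. With FOXL2 siRNA on the label it was 6870.5 and 7874 with vehicle and 5844 and 7486 with E2. The lowest of the latter 4 arrays was above the highest control array, and the replicates of the E2 groups were farther apart than those of the vehicle controls. The rise over both treatments was 1.68-fold (95% interval 1.44 to 1.97; log2 change 0.75, SE 0.10; limma adjusted p = 0.00266). It was 0.77 on the log2 scale with vehicle (SE 0.14, limma adjusted p = 0.0183) and 0.73 with E2 (SE 0.14, limma adjusted p = 0.0276). Both probes of Pdgfa gave a change of 0.75 over both treatments when each was fitted alone.

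The 2 calls were the same genes in each comparison between siRNAs. They stand against 6.57% of all genes called with vehicle, 4.39% with E2 and 12.6% over both treatments, and, counting rises only, against 3.63%, 2.25% and 6.41%. Over both treatments the arrays of both siRNAs did not overlap in the rising direction for 10.1% of genes. The methods give a rule for nuclear receptor and E2 targets. It asks for a log2 difference of 1 or more and above 2 times the sum of both SDs. When it was applied to the siRNA comparisons here, Pdgfc alone passed with vehicle (2.94% of genes did) and with E2 (2.35%). For FOXL2 targets the paper used a paired test and a smaller fold, in its other array experiment. With the treatments of the control arrays exchanged, the log2 change with vehicle and with E2 was 1.02 and 1.14 for Pdgfc and 0.89 and 0.61 for Pdgfa, and all 4 were called (the highest limma adjusted p, for Pdgfa with E2, was 0.0494). Pdgfc kept its limma call in every alternative tried and without any 1 array. Pdgfa did so over both treatments, but its within-treatment calls depended on single arrays. With vehicle the call was lost when any 1 of the 4 vehicle arrays was left out (limma adjusted p up to 0.120), and with E2 when either control array given E2, or replicate 2 of FOXL2 siRNA given E2, was left out (up to 0.176).

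Summed signals of some cell type markers moved with the same label. The summed signal of 7 Sertoli cell markers, all above background on at least some arrays, was 2916 to 3950 on the control arrays and 5993 to 7373 on the others. That of 7 theca markers, with Lhcgr on no array, was 124333 to 148075 and 99146 to 119992, and that of the 12 granulosa markers was 142139 to 150016 and 158744 to 177229. That of 8 stromal fibroblast markers, with Tcf21 on no array, was 6979 to 11861 on the control arrays and 9272 to 16695 on the others. These ranges overlapped, and within each treatment and replicate number the array labelled FOXL2 siRNA was the higher. Each sum follows its brightest genes. Hsd3b1 (median 90790 units) and Cyp11a1 (25389) led the theca sum, and Amhr2 (50445) and Inha (40179) the granulosa sum. Dhh (3478) led the Sertoli sum and Dcn (7488) the stromal fibroblast sum. The paper reports that Fst, Esr2 and Cyp19a1 required FOXL2 for their expression. Their medians of 1345, 2952 and 21.3 units count little in the granulosa sum. The part of these cell types in the change of Pdgfc and Pdgfa was not tested.

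**Figure D2:**
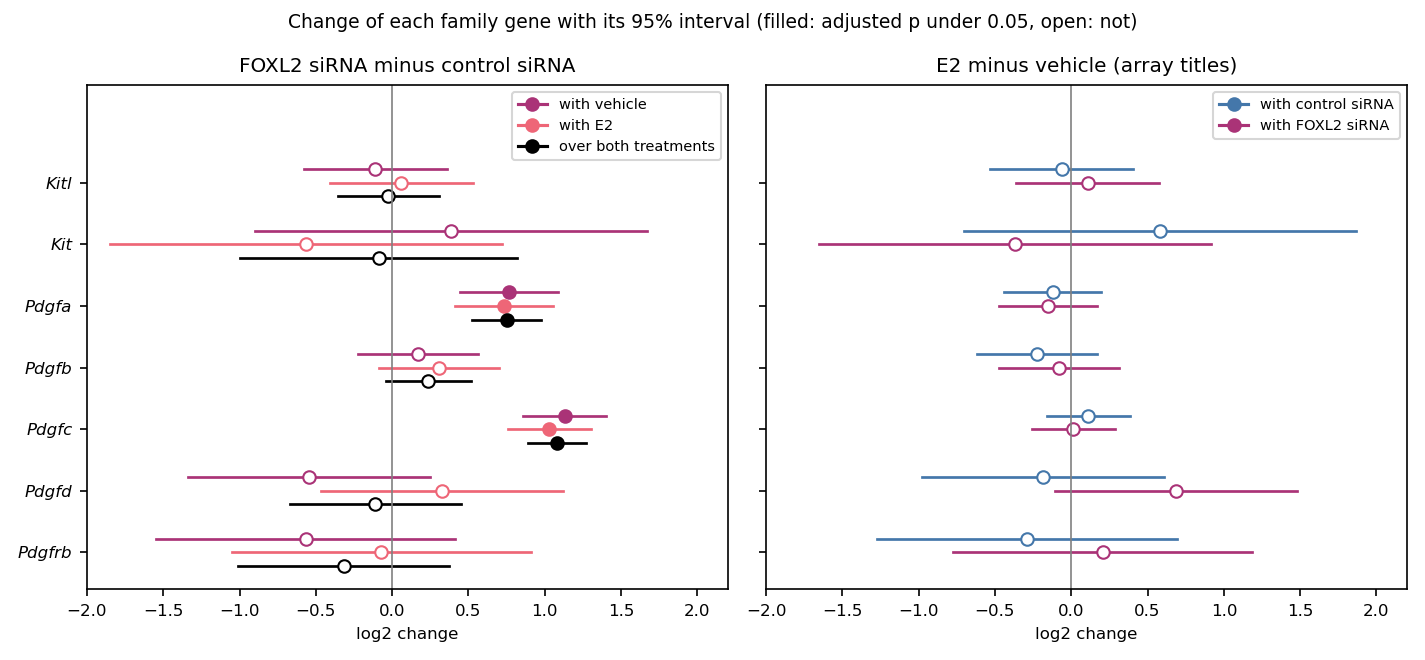
Log2 change of the 7 genes tested, with 95% intervals from limma, for FOXL2 siRNA minus control siRNA (left) and for E2 minus vehicle as the titles give it (right). The intervals of Pdgfa (0.52 to 0.98 over both treatments) and Pdgfc (0.89 to 1.27) lie above 0 on the left, and every interval on the right spans 0.

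Pdgfb, the B chain, can bind either PDGF receptor. It read 1034 and 1411 on the control arrays with vehicle, 935 and 1146 with E2, and on the arrays labelled FOXL2 siRNA 1289 and 1426 with vehicle and 1205 and 1366 with E2. The highest control array reached into the range of the others, and replicate 2 was the higher array in all 4 groups. Its log2 change over both treatments was 0.24 (95% interval -0.04 to 0.52, limma adjusted p = 0.259). With the replicate number as a block in the limma fit, Pdgfb was called over both treatments (adjusted p = 0.0202) and with E2 (adjusted p = 0.0484), but whether the numbers pair the arrays is not given in the sources used here. That block raised the calls over all 15638 genes from 1971 to 4326 over both treatments and from 686 to 2331 with E2. The 2 probes of Pdgfb differed in brightness and gave 0.08 and 0.25.

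Pdgfd, the D chain that binds PDGFRB after cleavage, varied most between replicates among the ligands. Its signals were 846 and 431 on the control arrays with vehicle, 660.4 and 428 with E2, 397 and 432 with FOXL2 siRNA and vehicle, and 811 and 548 with FOXL2 siRNA and E2. Control arrays alone spanned nearly the whole range. The log2 change was -0.55 with vehicle (95% interval -1.34 to 0.25) and 0.33 with E2 (-0.47 to 1.12), and neither differed from 0 beyond the spread (limma adjusted p = 0.452 and 0.722).

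Kitl, the KIT ligand, was well above background on every array. It read 924 and 828, and 832 and 842, on the control arrays with vehicle and with E2. The arrays labelled FOXL2 siRNA gave 875 and 749.8 with vehicle and 1099 and 693 with E2. The pair with FOXL2 siRNA and E2 held both the highest and the lowest of the 8 values. The change over both treatments was -0.03 on the log2 scale, and its 95% interval ran from 0.781-fold to 1.24-fold (limma adjusted p = 0.938).

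Among the receptors, Kit was dim. Its probe is printed at 2 spots, and 13 of the 16 spots on the 8 arrays were well above background. Kit read 23.2 and 14.3, 37.1 and 20.1, 36.2 and 15.6, and 26.3 and 12.9 units in the 4 groups in the order above. Replicate 1 was higher in all 4 groups, by 0.70 to 1.21 on the log2 scale, and the groups overlapped throughout. The 95% interval of its change over both treatments, 0.501-fold to 1.76-fold, was correspondingly wide (log2 change -0.09, limma adjusted p = 0.919).

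Pdgfrb was also dim, at 22.6 and 39.9 units on the control arrays with vehicle, 22.4 and 26.9 with E2, 14.9 and 27.6 with FOXL2 siRNA and vehicle, and 28.9 and 19.0 with FOXL2 siRNA and E2. Every group overlapped another, and the log2 change over both treatments was -0.32 (95% interval -1.01 to 0.37, limma adjusted p = 0.560). Pdgfra, the receptor for the A and C chains, stood well above background on none of the arrays. Its probe is printed at 10 spots, of which 7 of 80 over all arrays were well above background, and its mean signal of 5.41 to 10.9 units gives no fold change. The pericyte and smooth muscle markers, cells known for PDGFRB, had a summed signal of 4350 to 4577 units on the replicate 1 arrays and 11145 to 12981 on the replicate 2 arrays, with Rgs5, Abcc9, Kcnj8 and Myh11 on no array. Most of that sum was Acta2 (3753 to 11953 units). The mean log2 difference, replicate 1 minus replicate 2, was -1.52 for Acta2, -0.91 for Cnn1 and -0.68 for Notch3. For Des and Cspg4, well above background on 6 and 4 arrays, it was 0.80 and 0.39, the other way. Pdgfrb read higher in replicate 2 in all groups except FOXL2 siRNA with E2, and the part of those cells in its signal was not tested.

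E2 changed none of the 7 genes by limma. At an unadjusted p under 0.05 the count was also 0 with control siRNA, with FOXL2 siRNA and for the difference between both E2 effects, where 4.58%, 3.04% and 4.9% of all genes reached that p and 0.0192%, 0.0128% and 0.243% were called after adjustment. Signed as the titles give them, the E2 effects on Pdgfa were -0.12 with control siRNA (95% interval -0.44 to 0.20) and -0.15 with FOXL2 siRNA (-0.47 to 0.17). Those on Pdgfc were 0.11 (-0.16 to 0.39) and 0.01 (-0.26 to 0.28), and together these intervals reached from 0.835-fold to 1.31-fold. The most extreme value was that of Pdgfd with FOXL2 siRNA, 0.69 (95% interval -0.11 to 1.48, limma adjusted p = 1.00). Kit gave 0.58 with control siRNA and -0.37 with FOXL2 siRNA, and the difference between them, -0.95, had an interval of -2.77 to 0.87. The remaining E2 effects, on Kitl, Pdgfb and Pdgfrb, lay between -0.29 and 0.21.

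The upstream sequences of Pdgfc and Pdgfa, the genes that rose together, are shown with that of Kitl, which did not pass the test. They are the 250 bases before a RefSeq start site (build GRCm38.p6), 5′ to 3′ on the gene's strand, and capitals mark the 6 letters of a GC box, GGGCGG, or of a box bound by the TATA-binding protein, TATAAA, on either strand. Pdgfc is at chr3:81036166-81036415 on the plus strand, Pdgfa at chr5:138994945-138995194 on the minus strand (the farther upstream of its 2 start sites), and Kitl at chr10:100015571-100015820 on the plus strand.
Pdgfc: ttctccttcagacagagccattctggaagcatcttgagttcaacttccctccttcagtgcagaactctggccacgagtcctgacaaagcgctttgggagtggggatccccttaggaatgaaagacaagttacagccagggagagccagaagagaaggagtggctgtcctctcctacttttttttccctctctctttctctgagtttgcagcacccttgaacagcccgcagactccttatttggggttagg
Pdgfa: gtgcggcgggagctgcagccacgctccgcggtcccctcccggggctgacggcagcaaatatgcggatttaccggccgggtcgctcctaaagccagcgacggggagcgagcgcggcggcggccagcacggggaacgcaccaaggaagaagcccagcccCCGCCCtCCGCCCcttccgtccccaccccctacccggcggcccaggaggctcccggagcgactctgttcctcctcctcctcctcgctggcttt
Kitl: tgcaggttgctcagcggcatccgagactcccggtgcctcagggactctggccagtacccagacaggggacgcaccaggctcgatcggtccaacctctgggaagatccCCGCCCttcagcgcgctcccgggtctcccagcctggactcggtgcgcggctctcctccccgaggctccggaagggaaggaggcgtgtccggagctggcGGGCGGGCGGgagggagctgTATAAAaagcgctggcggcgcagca

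The 3 sequences differ in what the capitals mark. Pdgfc held neither motif and had a GC content of 50.8%, beside a median of 52.4% over all 32851 windows in the table. Pdgfa held 2 GC boxes, beginning at -93 and -86 from the start site, at 72.4% GC. Kitl held 3 GC boxes, of which those at -45 and -41 overlap each other, and a TATA box at -25, at 69.2% GC. A GC box was found in 32.7% of all windows and a TATA box in 12.4%. No window of the 6 genes listed, Pdgfb and Pdgfrb not being among them, held the forkhead letters TGTTTAC (3.17% of all windows), the estrogen response element, searched as GGTCA and its inverted repeat with any 3 bases between (0.0639%), the NR5A1 letters CAAGGTCA (1.33%), the SOX letters AACAAT (9.42%) or the AP-1 letters TGANTCA (6.75%). All were searched on both strands, and a match or its absence in 250 bases says nothing of binding.

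The genes whose profiles over the 8 arrays were most like those of Pdgfc and Pdgfa were found by the mean absolute difference between log2 values centred on each gene's own mean, among 13471 genes well above background on every array. For Pdgfc they were Wt1, a transcription factor of the gonad (0.05), Crispld2 (0.07) and Col4a6, a collagen IV chain (0.07). For Pdgfa they were Sqle, an enzyme of sterol synthesis (0.06), Tead1, the DNA-binding partner of YAP (0.07), and Gpr146 (0.07). Pdgfc and Pdgfa themselves differed by 0.22, which put Pdgfa at rank 216 for Pdgfc and Pdgfc at rank 826 for Pdgfa. All 6 genes were higher on the arrays labelled FOXL2 siRNA, with log2 changes over both treatments of 1.02 (Wt1), 1.11 (Crispld2), 1.01 (Col4a6), 0.71 (Sqle), 0.72 (Tead1) and 0.72 (Gpr146). These genes were picked for their likeness, so their changes are a description.

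**Figure D3:**
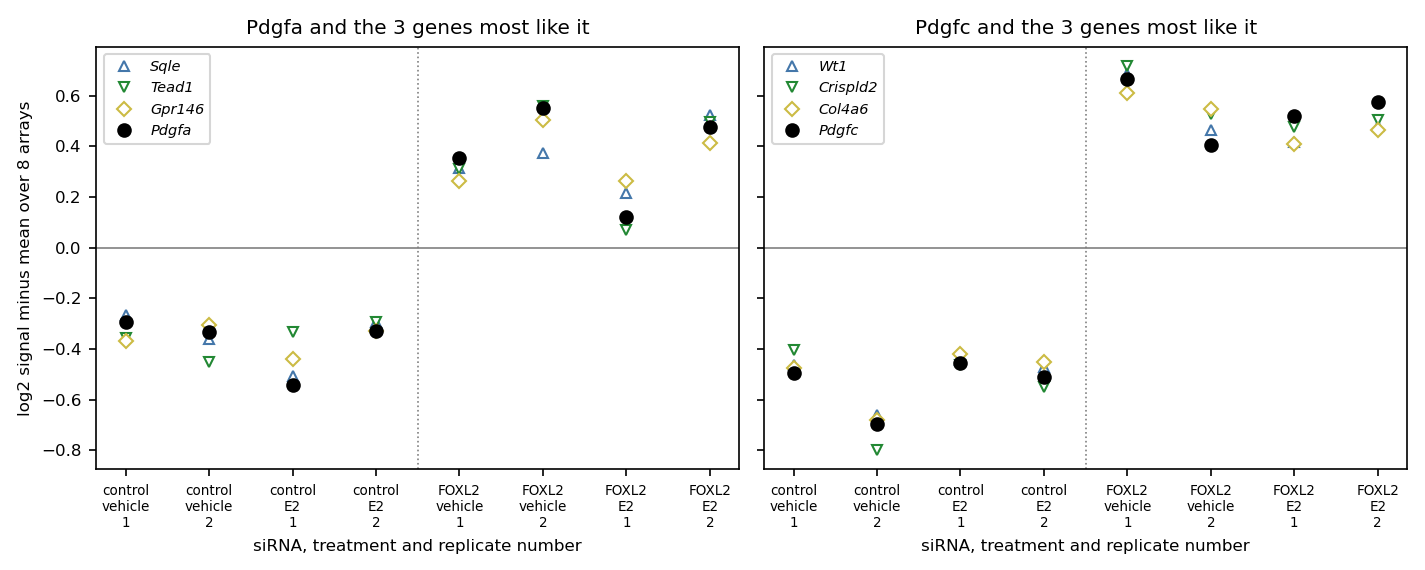
Log2 signal on each of the 8 arrays minus the gene's mean, for Pdgfa (left) and Pdgfc (right) as black circles and the 3 genes most like each as open symbols. Values to the right of the dotted line, from arrays labelled FOXL2 siRNA, are all above 0, and those of Pdgfc are above 0.4.

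Genes that process, bind or transmit these ligands were counted in 6 lists of 104 genes, of which 95 were tested. Over both treatments 11 were higher, 12 were lower and 72 did not pass the threshold, shares of 11.6% and 12.6% beside 6.41% and 6.19% of all genes. The median change over the lists was -0.02, and over all genes -0.00. With vehicle 5 rose and 7 fell, shares of 5.26% and 7.37% beside 3.63% and 2.94% of all genes. With E2 2 rose and 4 fell, shares of 2.11% and 4.21% beside 2.25% and 2.14%, so the rises with E2 were near the share of all genes. No list gene was called for either E2 effect.

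The list of processing, binding and co-receptor genes held the most calls, 3 higher and 5 lower of 15. Pcsk5, a proprotein convertase, fell by 1.44 on the log2 scale (SE 0.18, limma adjusted p = 0.00252), from 2114 to 2616 units on the control arrays to 683 to 1084 on the others. Thbs1, the extracellular matrix protein thrombospondin, fell by 1.17 (SE 0.08, limma adjusted p = 0.000251). Plat, which encodes tissue plasminogen activator, fell by 0.85 (limma adjusted p = 0.00137). Plau, which encodes urokinase, had a mean change of -1.15 (SE 0.15, limma adjusted p = 0.00294). As titled, the fall was called only with vehicle: -2.77 (limma adjusted p = 0.00110), beside 0.47 with E2 (limma adjusted p = 0.336). With the control treatments exchanged, the Plau signals on FOXL2 siRNA arrays lay below those of their controls in both treatments. Pcsk7 fell by 0.37. The 3 that rose were Nrp1, a co-receptor (1.09), Ccn2, a matricellular protein (1.04), and Adam10, a sheddase (0.53). Plat, Pcsk7 and these 3 were named after their values were seen. The call of Pcsk7 was lost in 7 of the 8 fits that left out 1 array.

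Of the other lists, the relatives of the receptors and ligands had 2 of 9 higher and 1 lower. Csf1, the ligand of the related receptor CSF1R, rose by 1.27 on the log2 scale (SE 0.23, limma adjusted p = 0.0106), from 427 to 579 units on the control arrays to 879 to 1586. Il34, the second known CSF1R ligand, fell by 0.93 (SE 0.10, limma adjusted p = 0.00136). Vegfa rose by 0.61 (limma adjusted p = 0.0367).

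Of 21 receptor-proximal adaptors and kinases, the SRC-family kinase Fyn was higher (0.40) and its relative Yes1 was lower (-0.68). Of 18 genes of the PI3K-AKT branch, Akt2 (0.35) and Pik3r3 (0.30) rose, and Foxo1 fell (-0.83). The mean change of Pik3cd, a catalytic subunit of PI3K, was -0.69 and was also called, from -1.82 with vehicle (limma adjusted p = 0.00214) and 0.44 with E2 (limma adjusted p = 0.266), as titled. With the control treatments exchanged, its signals on FOXL2 siRNA arrays also lay below those of their controls in both treatments. In the RAS-ERK branch, Nras (0.31) and Rps6ka3 (0.42) were among the genes that rose, and Rps6ka1 (-0.56) and Mapk3 (-0.28) among those that fell. Leaving out 1 array ended the call of Vegfa in 5 of the 8 fits, Fyn in 5, Yes1 in 7, Pik3r3 in 7, Nras in 6, Rps6ka3 in 6, Rps6ka1 in 6 and Mapk3 in 7. Apart from these and Pcsk7, the list genes named here kept their calls in all 8. Among the 10 other settings, the call over both treatments was lost in 3 for Vegfa, in 2 each for Pcsk7, Nras, Rps6ka1 and Mapk3, and in 1 each for Yes1, Pik3r3, Rps6ka3 and Akt2. For Akt2 this was the mean of log2 probe values, which gave 0.20 (limma adjusted p = 0.0710). Yes1 kept its call with normexp correction at a smaller change of -0.43. Pik3r3, Nras and Mapk3 were also named after their values were seen.

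**Figure D4:**
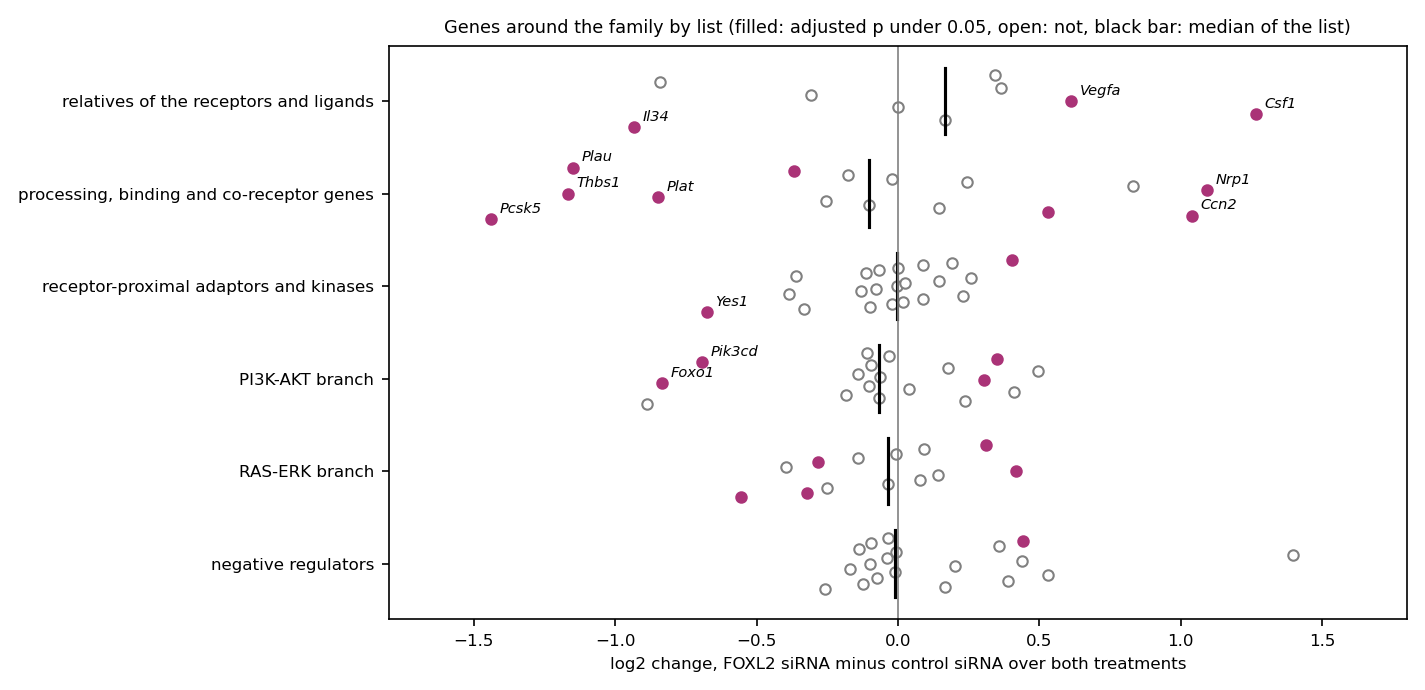
Log2 change over both treatments (x axis) of the 95 genes tested in the 6 lists, one dot per gene, filled where the limma adjusted p is under 0.05, with the median of each list as a black bar. Filled dots lie on both sides of 0, from Pcsk5 at -1.44 to Csf1 at 1.27, and the medians of the lists lie between -0.10 and 0.17.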

How the data were processed

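Cy3-labelled RNA (50 ng per sample) was hybridised to 8 one-colour Agilent mouse arrays. Per the file headers, the deposited intensity values were background-subtracted processed signals from Feature Extraction 11.5.1.1, with an array design based on mm9. The deposited table of log2 values was made by the authors from the same scans by scaling each array to its 75th percentile and averaging the probes of each Entrez gene. Once each array's offset of 0.19 to 0.22 was removed, 98.6% to 98.9% of its genes were within 0.001 of the values computed here.

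Of 62976 spots, 3671 were controls and were left out. Spots marked non-uniform on an array were left out of that array. The 39 probes with no other spot on some array were dropped, which left 55642 probes. Processed signals were scaled to the 75th percentile (275 to 367 units before scaling), probes were averaged per gene with the probe map of the deposited table, and genes with a median below 10 units were dropped, after the methods of the study. A probe was taken as well above background on an array when at least 50% of its spots carried that scanner mark. Log2 signals were fitted with limma 3.58.1 in R 4.3.3 (4 group means, 4 residual degrees of freedom, prior variance with an intensity trend), with two-sided p-values adjusted by Benjamini-Hochberg over all 15638 genes that passed the filter and called below 0.05. The script was tested on simulated data. Intervals are at 95%. The number of arrays limits the precision. Symbols came from RefSeq for 22352 of 24235 genes.

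Members and gene lists were chosen with earlier results of these data known. All 8 members and Foxl2 were named, with up to 3 called genes per list by size of change over both treatments, any list gene called for E2 or for the difference of E2 effects, and the 3 genes most like each called member. Alternatives were normexp correction (offset 50, on median signals), quantile normalization, the deposited table, the median subtracted per replicate number, no filter, genes well above background on at least 2 arrays, the brightest probe, the mean of log2 probe values, no intensity trend, only the groups compared, a replicate block and each array left out. Each probe alone, and the treatments of the control siRNA arrays exchanged, were added after seeing the data. The values of some list genes are not reported here.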

Additional observations from a re-analysis of the deposited data

Results flagged for a closer look

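Of the 95 list genes tested around the family, 2 (2.11%) differed in their E2 effect between the siRNAs by the limma test of that difference. Over all 15638 genes 38 did (0.243%). For Plau, signed as the titles give it, the E2 effect with FOXL2 siRNA minus that with control siRNA was 3.24 on the log2 scale (SE 0.31, limma adjusted p = 0.0147). Its signal was 955 and 959.6 on the control arrays with vehicle, 215 and 275 with E2, 157 and 126 with FOXL2 siRNA and vehicle, and 411 and 276 with FOXL2 siRNA and E2. For Pik3cd the difference was 2.26 (SE 0.25, limma adjusted p = 0.0273), from signals of 511 and 724, 234 and 272, 178 and 166, and 328 and 357 in the same order. With the treatments of the control siRNA arrays exchanged, as the study's own tables have them, the differences were -0.72 and -0.27 and neither was called. In that setting 0 of all 15638 genes were called for this difference. Leaving out 1 array ended the call of Plau in 5 of 8 fits and that of Pik3cd in 7 of 8. In each gene the control arrays with vehicle were the highest, and which treatment those arrays received was not tested.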

How the results depend on the processing

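The 2 members called in each comparison between siRNAs were Pdgfa and Pdgfc. With vehicle 1 member was called without the intensity trend, and with E2 1 was called without the filter on low signal, without the trend and with only the groups compared; leaving out 1 array gave 1 to 2 in both. In these settings Pdgfc remained. Pdgfa then had a limma adjusted p of 0.0544 with vehicle (no trend), and with E2 of 0.0506 (no filter), 0.0794 (no trend), 0.0711 (only the groups compared) and 0.0525 (probe A_55_P2125588 alone), within ranges over its alternatives of 0.000138 to 0.120 and 0.000227 to 0.176. By the rule that the methods give for nuclear receptor and E2 targets, normexp left 0 members for FOXL2 siRNA with E2 in place of 1. With the control treatments exchanged, 2 members stayed called with vehicle and 2 with E2.

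The replicate block gave 2 calls with vehicle, 3 with E2 and 3 over both treatments, where Pdgfb was added (log2 change 0.31, limma adjusted p = 0.0484, and 0.24, adjusted p = 0.0202). It changed no other call of a member. Of all 15638 genes the block called 2932 with vehicle, 2331 with E2 and 4326 over both treatments, beside 1027, 686 and 1971 without it. Deviations of same-numbered arrays correlated at 0.33 to 0.44 between groups over genes, but the sources used here do not tie a number to a pool of mice, and 2 numbers are too few to settle the pairing.

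Log2 changes of members and Foxl2 that changed sign were all uncalled in the fit described above. Foxl2 probe A_55_P2041668 alone gave -1.15 with vehicle, -0.79 with E2 and -0.97 over both, the last called (limma adjusted p = 0.0199). The called differences of E2 effects of Plau and Pik3cd became -0.72 and -0.27, both uncalled, when the control treatments were exchanged. That setting also gave -0.0034 for Kitl with E2, -0.20 and 0.019 for Kit with vehicle and with E2, -0.19 for Foxl2 with E2, and differences of E2 effects of 0.22 (Kit), -0.30 (Pdgfb), 0.12 (Pdgfc) and -0.084 (Pdgfrb). Normexp gave 0.041 for Kit over both treatments, -0.053 for the E2 effect on Pdgfrb with FOXL2 siRNA and 0.0054 for the difference of Pdgfa, for which quantile normalization gave 0.027. The mean of log2 probe values gave 0.15 for the E2 effect on Pdgfb with FOXL2 siRNA, and -0.49, -0.30 and -0.39 for Foxl2 with vehicle, with E2 and over both. Probe A_55_P1974441 alone gave, for Pdgfb, -0.011 with vehicle and E2 effects of 0.22 and 0.40 with control and FOXL2 siRNA. Leaving out 1 array, the ranges that crossed 0 were, for Kitl, -0.27 to 0.39 (E2), -0.19 to 0.14 (both), -0.14 to 0.015 and -0.22 to 0.44 (E2 effects with control and FOXL2 siRNA) and -0.16 to 0.50 (their difference). For Kit they were -0.22 to 0.99 (vehicle), -0.39 to 0.21 (both) and -0.97 to 0.24 (E2 effect with FOXL2 siRNA). For Pdgfa they were -0.33 to 0.025 (E2 effect with FOXL2 siRNA) and -0.21 to 0.15 (difference). For Pdgfb they were -0.057 to 0.39 (vehicle), -0.45 to 0.0019 and -0.17 to 0.011 (E2 effects) and -0.082 to 0.37 (difference). For Pdgfc they were -0.12 to 0.14 (E2 effect with FOXL2 siRNA) and -0.23 to 0.030 (difference). For Pdgfd they were -0.35 to 0.13 (both) and -0.67 to 0.30 (E2 effect with control siRNA). For Pdgfrb they were -0.38 to 0.24 (E2), -0.70 to 0.12 and -0.24 to 0.65 (E2 effects), and for Foxl2 -0.057 to 0.39 (vehicle). A group left with 1 array was taken to vary like the others. Kit, Pdgfrb and Pdgfra lie near background, where 2 arrays a group give wide intervals.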

Other observations

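Kit and Pdgfb followed the replicate number in all 4 groups, in opposite directions. Kit was higher in replicate 1 by 0.70, 0.88, 1.21 and 1.02 on the log2 scale in the control siRNA groups given vehicle and E2 and the FOXL2 siRNA groups given vehicle and E2. Its mean of 0.95 was at rank 171 of 15638 genes. Pdgfb was higher in replicate 2 in each group, by 0.15 to 0.45. Replicate 1 was the higher array in all 4 groups for 17.2% of genes, and replicate 2 for 19.0%. The summed signal of 8 stromal fibroblast markers also was higher in replicate 1 in every group (11848 to 16695 units, beside 6979 to 10080 in replicate 2). That of the 9 pericyte and smooth muscle markers, mostly Acta2, was higher in replicate 2, whereas Des and Cspg4 of that list were on average higher in replicate 1. The part of these cells in the values of Kit and Pdgfb was not tested.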
